A study of Mus musculus with 18 samples.

Results

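In mouse left ventricle, 6 genes that carry or pace the electrical impulse of the heart were examined: Scn4b, Gja1, Gja5, Gjc1, Hcn2 and Hcn4. They were chosen by symbol as a list of sodium channel, connexin and pacemaker genes, drawn up with earlier results of these data known, and are 6 of the 55450 genes in the count table. All 6 passed the filter on low counts. RNA sequencing was done on 18 left ventricles of FVB/N mice, from wild-type (WT) animals and from littermates with cardiac-specific overexpression of Gαq (gene Gnaq), a signalling subunit of heterotrimeric G proteins. Mice ate control chow (CD) or chow holding the SGLT2 inhibitor ertugliflozin (ERTU) at 0.5 mg/g for 16 weeks from 4 to 20 weeks of age. WT mice gave 4 libraries on CD and 5 on ERTU, Gαq mice gave 5 on CD and 4 on ERTU, and the study's methods name male mice. The promoter that drives the transgene was not given in the sources used here. Nothing in the labels says whether libraries of a group differ in litter or day, so p-values measure the spread between these ventricles only.

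Impulse conduction in the ventricle rests on sodium channels that start the action potential and on gap junctions that pass current between cells. A sodium channel has a pore-forming alpha subunit and smaller beta subunits that shape its gating, and Scn4b encodes the beta4 subunit. Gap junction channels are built from connexins: Gja1 (Cx43) is the main one of working ventricular muscle, Gja5 (Cx40) is known from atria, the His-Purkinje system and arterial endothelium, and Gjc1 (Cx45) from nodal tissue and the embryonic heart. Hcn2 and Hcn4 encode channels that open on hyperpolarization and carry the pacemaker current, with HCN4 known from the sinus node and HCN2 from ventricle.

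Among the 6 genes, genotype separated Scn4b and Gjc1 without overlap on either diet. Scn4b was 6.66-fold lower and Gjc1 1.92-fold higher in Gαq than in WT ventricle on control diet. Hcn2 rose 1.37-fold and Hcn4 fell 1.53-fold with genotype over both diets. Gja1 and Gja5 did not pass the test in any comparison, and no gene of the 6 passed it for ertugliflozin. Of the 6, 4 passed for genotype, 2 higher and 2 lower, against a background of 19.6% of 16270 genes tested (9.72% higher and 9.92% lower). Here and below, the test is edgeR's quasi-likelihood test with Benjamini-Hochberg adjustment over all genes tested, and a gene rose or fell where its adjusted p was under 0.05.

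The 18 libraries held between 15383566 and 20908363 counts. Gnaq, the overexpressed gene, checked the labels: it ranged from 45.5 to 229.7 CPM (counts scaled to a common library total) in the WT libraries and from 1641 to 11672 CPM in the Gαq libraries. Ventricular muscle genes were abundant in every library, with a summed level of 10 cardiomyocyte markers between 67393 and 105632 CPM, and the ranges of the 4 groups overlapped. Atrial markers were present in some libraries. Their sum reached 369.1 CPM in WT CD library 5, 382.4 CPM in WT ERTU library 14, 932.5 CPM in Gαq CD library 8 and 603.2 CPM in Gαq ERTU library 20, and the lowest sum in each group was between 33.1 and 99.8 CPM. In bulk ventricle, fewer cells of a type and less RNA per cell cannot be told apart.

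The promoters of the 2 pacemaker genes are shown because these genes moved in opposite directions with genotype. Each line gives the 250 bases before the start of the gene in RefSeq on build GRCm38.p6, 5′ to 3′ on the plus strand, with an E-box (CANNTG) in capitals. The RefSeq start of Hcn4 lies before the start given for it by GENCODE.
Hcn2 (chr10:79716384-79716633): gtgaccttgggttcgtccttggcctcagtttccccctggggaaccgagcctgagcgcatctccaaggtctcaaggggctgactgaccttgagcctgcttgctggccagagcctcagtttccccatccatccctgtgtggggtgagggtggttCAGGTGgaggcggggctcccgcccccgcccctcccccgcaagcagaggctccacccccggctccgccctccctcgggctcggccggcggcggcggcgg
Hcn4 (chr9:58822699-58822948): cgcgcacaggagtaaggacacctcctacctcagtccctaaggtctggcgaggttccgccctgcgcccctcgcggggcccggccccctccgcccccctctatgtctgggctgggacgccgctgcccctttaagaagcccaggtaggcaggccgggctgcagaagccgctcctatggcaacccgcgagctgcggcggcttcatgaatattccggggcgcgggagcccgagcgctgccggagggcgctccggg
Both stretches are rich in G and C, at 70.4% for Hcn2 and 71.2% for Hcn4, against a median of 52.4% over 32841 promoters of the same length. The letters CANNTG, which read the same on both strands, occurred once in the Hcn2 promoter, at -98 to -93 from the start, and were not found in the Hcn4 window. They occurred in 66.2% of all promoters. The letters of 4 other transcription factor motifs, searched on both strands, were found in neither window. They were AGATAA for GATA factors (in 9.99% of all promoters), TNAAGTG for NKX2-5 (10.1%), AGGTGTG for T-box factors (5.11%) and TGANTCA for AP-1 (6.75%). A match is a description of letters and not of a bound site. Of the 6 genes, 5 had an entry in the promoter table.

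Scn4b (ENSMUSG00000046480, chr9:45138395-45154152, plus strand) had the largest change of the 6. In WT CD libraries 1, 2, 4 and 5 it measured 91.4, 72.2, 60.7 and 129 CPM. In WT ERTU libraries 11 to 15 it measured 56.4, 86.3, 87.6, 113 and 103 CPM. In Gαq CD libraries 6 to 10 it measured 15.1, 7.31, 8.78, 18.1 and 17.2 CPM, and in Gαq ERTU libraries 16, 17, 18 and 20 it measured 11.1, 28.7, 19.2 and 19.2 CPM. Every Gαq library lay below every WT library, so the genotypes did not overlap on either diet. The means were 88.3 ± 29.9 CPM (SD, n = 4) in WT CD, 89.3 ± 21.5 (n = 5) in WT ERTU, 13.3 ± 4.93 (n = 5) in Gαq CD and 19.5 ± 7.18 (n = 4) in Gαq ERTU. On control diet the log2 fold change of Gαq against WT was -2.74 ± 0.29 (SE; edgeR adjusted p = 6.68e-06). On ertugliflozin it was -2.19 ± 0.30, a 4.57-fold lower level (edgeR adjusted p = 0.000108). Over both diets it was -2.46 ± 0.21 (edgeR adjusted p = 8.03e-08).

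**Figure D1:**
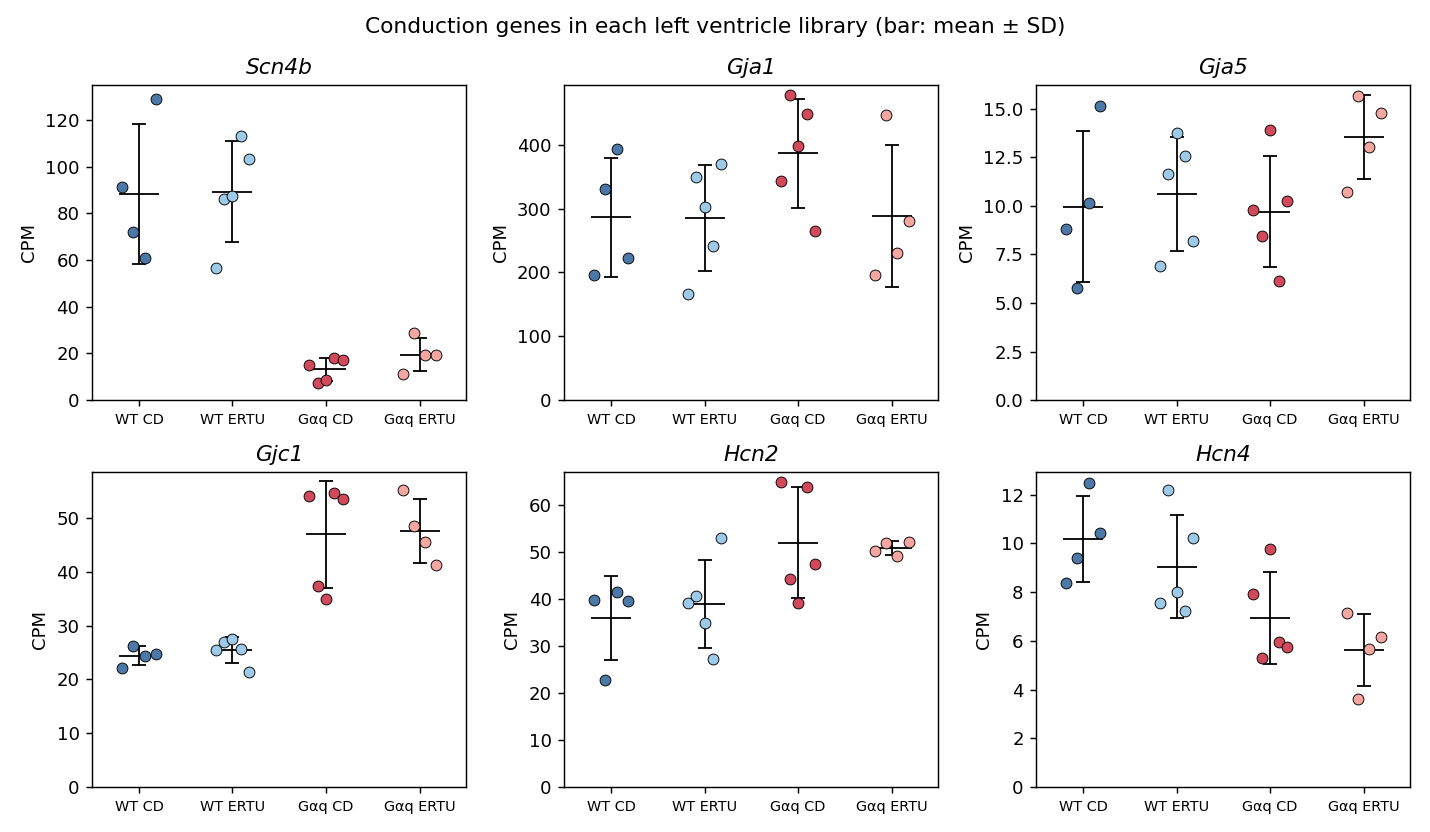
Level of the 6 conduction genes in each library, in CPM on linear axes that start at 0, for the 4 groups. Points are libraries, and bars give the mean ± SD. Scn4b lay at 7.31 to 28.7 CPM in the Gαq libraries and at 56.4 to 129 CPM in the WT libraries, and Gjc1 at 35.0 to 55.3 against 21.3 to 27.5 CPM.

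The transgene level varied within and between the Gαq groups. Every Gαq CD library but library 10 lay above every Gαq ERTU library in Gnaq. The part of this difference in the comparisons that use both Gαq groups was not tested. In Gαq CD libraries 6 to 10 Gnaq measured 6304, 9701, 8045, 11672 and 1641 CPM, beside the Scn4b levels of 15.1, 7.31, 8.78, 18.1 and 17.2 CPM. Library 9 was the highest in both genes, and in the other 4 libraries Scn4b was lower where Gnaq was higher. In Gαq ERTU libraries 16, 17, 18 and 20 Gnaq measured 2392, 5207, 2236 and 3031 CPM. Library 17 was the highest in both genes, library 18 the lowest in Gnaq and library 16 the lowest in Scn4b.

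Among the partners of Scn4b, the skeletal muscle pore gene Scn4a fell with genotype by 1.80 on the log2 scale (SE 0.20, edgeR adjusted p = 1.46e-06). Its levels were 40.7, 49.3, 42.1 and 61.4 CPM in WT CD, and 19.5, 6.92, 6.45, 13.4 and 15.1 CPM in Gαq CD, without overlap. On ertugliflozin Scn4a ran from 39.1 to 64.1 CPM in WT and from 10.2 to 21.9 CPM in Gαq, again without overlap. Of the 6 pore genes that could be tested, Scn4a was the one that passed for genotype, beside 19.6% of all genes tested.

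No other beta subunit passed as lower. Scn2b and Scn3b, which encode beta2 and beta3, had genotype log2 fold changes of 0.21 ± 0.29 and 0.13 ± 0.23, and neither passed. Per length, as CPM per kilobase of exon (RPKM), Scn4b made up 46.7% ± 6.69 (SD, n = 4) of the 4 beta subunits in WT CD and 51.7% ± 2.65 (n = 5) in WT ERTU. In Gαq CD this share was 9.32% ± 2.86 (n = 5) and in Gαq ERTU 13.9% ± 3.95 (n = 4).

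**Figure D2:**
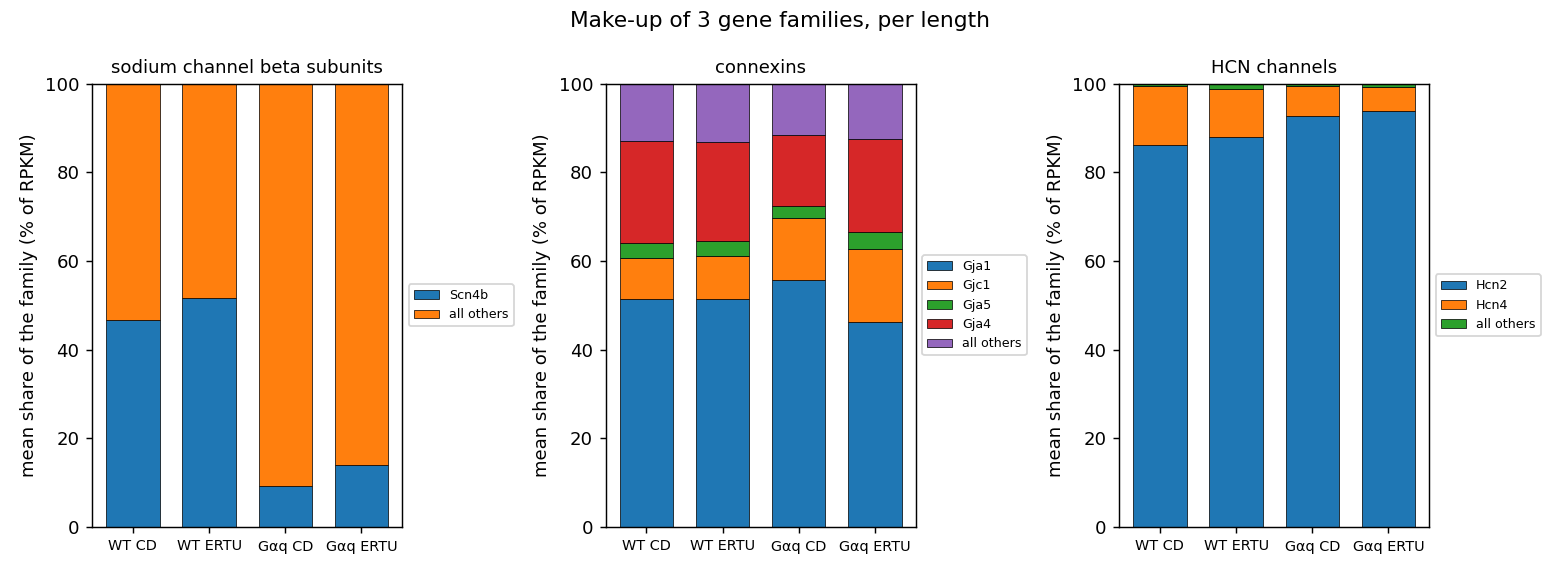
Mean share of named genes and of all others in the summed RPKM of 3 families (% of RPKM, stacked to 100) for the 4 groups. The Scn4b part of the beta subunits was 46.7% and 51.7% in the WT groups and 9.32% and 13.9% in the Gαq groups, and the Hcn4 part of the HCN channels was 13.3%, 10.8%, 6.75% and 5.43%.

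The 3 connexins among the 6 genes differed in their values. Gja1 (ENSMUSG00000050953, chr10:56377330-56402513, plus strand) had the highest level per length of the 6 genes in all 4 groups. It measured 197, 331, 394 and 223 CPM in WT CD and 166, 350, 302, 242 and 369 CPM in WT ERTU. It measured 343, 478, 398, 448 and 266 CPM in Gαq CD and 196, 447, 231 and 281 CPM in Gαq ERTU. The 4 groups overlapped. The log2 fold change with genotype was 0.22 ± 0.19 (edgeR adjusted p = 0.446), with 0.43 ± 0.26 on control diet (edgeR adjusted p = 0.374) and 0.01 ± 0.26 on ertugliflozin (edgeR adjusted p = 0.988). Gja1 is also made by fibroblasts. Of 7 fibroblast markers, 5 rose with genotype, beside 9.72% of all genes tested. Among the 5 were Col1a1 at a log2 fold change of 0.87 ± 0.19 and Lum at 0.97 ± 0.17. The sum of the 7 ran from 1391 to 2668 CPM in the WT and from 2482 to 3776 CPM in the Gαq libraries. The part of these markers in the Gja1 values was not tested.

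Gja5 (ENSMUSG00000057123, chr3:96904693-97077416, plus strand) was a low gene in every group. It measured 8.82, 5.75, 10.1 and 15.1 CPM in WT CD and 6.90, 11.6, 13.8, 12.6 and 8.18 CPM in WT ERTU. It measured 9.77, 8.42, 13.9, 6.14 and 10.3 CPM in Gαq CD and 10.7, 15.6, 13.0 and 14.8 CPM in Gαq ERTU. The groups overlapped in every comparison, and the genotype log2 fold change was 0.16 ± 0.18 (edgeR adjusted p = 0.576). The gene model shares 165 exon bases with Gpr89 on the opposite strand, and whether counting used strand is not clear from the sources used here, so reads there are of uncertain origin. Gja4, an arterial endothelial connexin, had a genotype log2 fold change of -0.04 ± 0.12 (edgeR adjusted p = 0.844). None of 7 arterial endothelial markers passed by genotype in edgeR, and their sum ran from 165.3 to 264.3 CPM over all libraries.

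Gjc1 (ENSMUSG00000034520, chr11:102799579-102819700, minus strand) rose with genotype. It measured 22.1, 26.3, 24.4 and 24.8 CPM in WT CD and 25.5, 26.9, 27.5, 25.6 and 21.3 CPM in WT ERTU. It measured 54.2, 37.4, 35.0, 54.7 and 53.6 CPM in Gαq CD and 55.3, 48.5, 45.5 and 41.2 CPM in Gαq ERTU. All Gαq libraries lay above all WT libraries, and 2 Gαq CD libraries, 7 and 8, lay below the other 3. The log2 fold change was 0.94 ± 0.14 on control diet (edgeR adjusted p = 0.00016), 0.91 ± 0.13 on ertugliflozin (edgeR adjusted p = 0.000208) and 0.92 ± 0.09 over both diets (edgeR adjusted p = 4.13e-07). Per length, Gjc1 made up 9.23% ± 0.869 (SD, n = 4) of 20 connexins in WT CD and 14.1% ± 3.51 (n = 5) in Gαq CD. In WT ERTU the share was 9.69% ± 1.77 (n = 5) and in Gαq ERTU 16.3% ± 3.48 (n = 4).

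Gjc1 is also known from smooth muscle and pericytes. Of 5 smooth muscle markers none passed by genotype in edgeR. Of 5 pericyte markers 2 fell, beside 9.92% of all genes tested, Rgs5 by 0.24 and Abcc9 by 0.53 on the log2 scale. The pericyte sum ran from 1481 to 1896 CPM in the WT and from 1192 to 1467 CPM in the Gαq libraries. Several marker sums had medians in both Gαq groups above those of both WT groups. For Purkinje fibres they were 41.0 (WT CD), 55.8 (WT ERTU), 84.9 (Gαq CD) and 94.1 CPM (Gαq ERTU). In the same order fibroblast medians were 1759, 1569, 2676 and 2766 CPM and sinus node medians 129.9, 117.2, 153.8 and 136.3 CPM. Most of the sinus node sum was the level of a single marker, Smoc2. Macrophage and lymphocyte medians also lay higher. Other marker sums had medians in both Gαq groups below those of both WT groups. In the same order smooth muscle medians were 543.6, 490.8, 326.0 and 385.2 CPM and endothelium medians 1315, 1370, 1203 and 1164 CPM. Cardiomyocyte medians were 88763, 94054, 73220 and 77350 CPM. Pericyte medians and those of nerve and glia also lay lower. Within Gαq CD, library 8 had the highest fibroblast sum, 3776 CPM, and the lowest Gjc1. The part of these markers in the Gjc1 values was not tested. Of the 17 other connexins 3 could be tested, and 1 passed for genotype, as higher, beside 9.72% of all genes tested. Gjd3, a connexin of the mouse atrioventricular node, was too low to test, with group means of 0.0397 to 0.151 CPM.

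The pacemaker genes moved in opposite directions with genotype. Hcn2 (ENSMUSG00000020331, chr10:79716634-79736108, plus strand) measured 39.8, 22.7, 41.6 and 39.7 CPM in WT CD and 39.2, 40.6, 34.9, 27.3 and 53.0 CPM in WT ERTU. It measured 65.0, 44.4, 39.2, 64.0 and 47.5 CPM in Gαq CD and 50.3, 51.9, 49.1 and 52.2 CPM in Gαq ERTU. The genotypes overlapped on both diets, and WT CD library 2 was the lowest of all. Hcn2 rose with genotype over both diets, at a log2 fold change of 0.46 ± 0.13 (edgeR adjusted p = 0.0163). On one diet at a time it did not pass, with 0.53 ± 0.19 on control diet (edgeR adjusted p = 0.0955) and 0.38 ± 0.19 on ertugliflozin (edgeR adjusted p = 0.240).

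Hcn4 (ENSMUSG00000032338, chr9:58823412-58863175, plus strand) measured 8.36, 9.40, 12.5 and 10.4 CPM in WT CD and 7.56, 12.2, 8.01, 7.24 and 10.2 CPM in WT ERTU. It measured 7.93, 5.27, 9.79, 5.96 and 5.76 CPM in Gαq CD and 7.13, 3.60, 5.65 and 6.16 CPM in Gαq ERTU. The genotypes overlapped on control diet through Gαq CD library 8, and all Gαq ERTU libraries lay below all WT ERTU libraries. Hcn4 fell with genotype over both diets, at a log2 fold change of -0.61 ± 0.15 (edgeR adjusted p = 0.00523). On control diet the log2 fold change was -0.55 ± 0.21 (edgeR adjusted p = 0.126), and on ertugliflozin -0.68 ± 0.22 (edgeR adjusted p = 0.0588). These low levels rest on 65 to 219 counts per library.

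Gαq CD library 8, which had the highest Hcn4 level of its group, was also the library with the most atrial markers. In the other groups the library with the most atrial markers was not the highest in Hcn4. WT ERTU library 14, with the most atrial markers of its group, had its lowest Hcn4 level, 7.24 CPM. In WT CD the library with the most atrial markers, 5, lay at 10.4 CPM, below library 4 alone at 12.5 CPM. In Gαq ERTU library 20 lay at 6.16 CPM, below library 16 alone at 7.13 CPM. Without the library highest in atrial markers of each group, the Hcn4 genotype log2 fold change was -0.75 (edgeR adjusted p = 0.00365) and that of Hcn2 was 0.46 (edgeR adjusted p = 0.0359). Of 6 sinus node markers 4 could be tested, and none of them passed by genotype in edgeR. Isl1 and Vsnl1 were at or near 0 in every library, at most 0.320 CPM and 0.787 CPM. Means over all libraries were 20.0 CPM for Tbx3, 8.61 CPM for Tbx18 and 1.03 CPM for Shox2. With Smoc2, the sum of the 6 markers ran from 93.2 to 149.3 CPM in the WT and from 120 to 200.6 CPM in the Gαq libraries. Smoc2 made up most of this sum in every library, because Tbx3, Tbx18 and Shox2 were at most 25.6, 11.5 and 3.08 CPM. The sum is therefore mainly the level of Smoc2.

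Per length, Hcn2 was the main HCN gene in each group. Hcn4 made up 13.3% ± 3.35 (SD, n = 4) of the 4 HCN genes in WT CD, 10.8% ± 1.90 (n = 5) in WT ERTU, 6.75% ± 2.66 (n = 5) in Gαq CD and 5.43% ± 1.42 (n = 4) in Gαq ERTU. Hcn3 was too low to test, with group means of 0.136 to 0.379 CPM. Of the 7 other pacemaker genes tested, 1 passed for genotype, beside 19.6% of all genes tested. It was Cacna1d, a calcium channel pore of the sinus node (log2 fold change 0.44 ± 0.14, edgeR adjusted p = 0.0304).

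**Figure D3:**
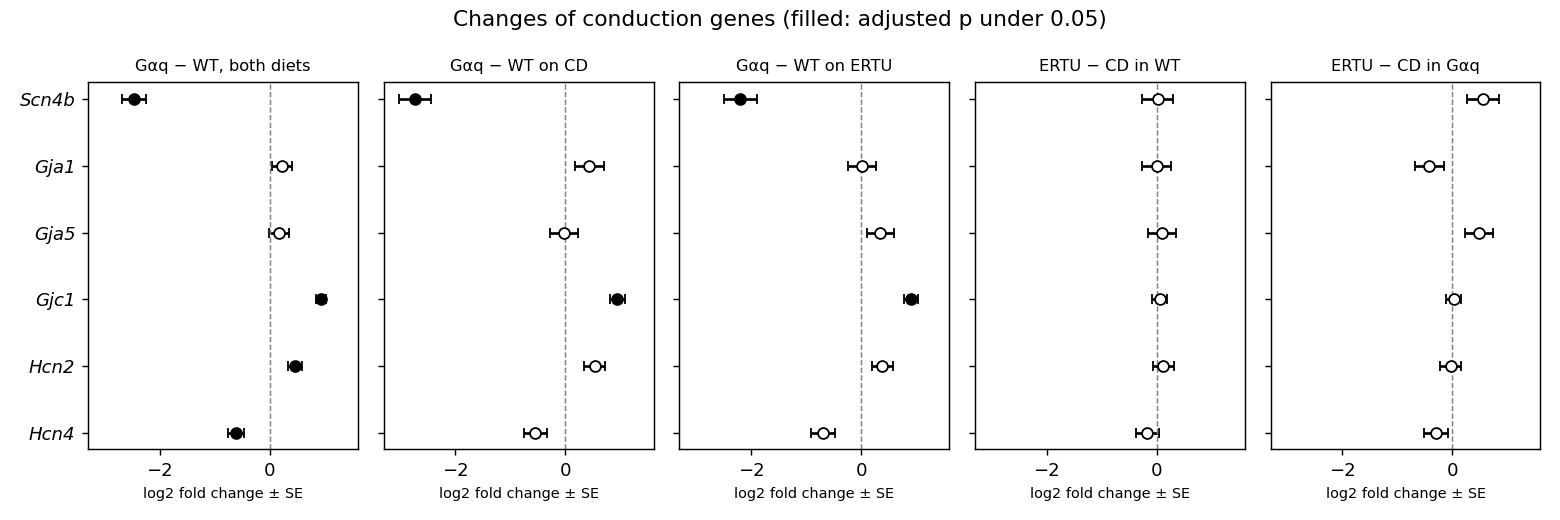
Log2 fold change ± SE of the 6 genes in 5 comparisons, with filled points for an adjusted p under 0.05 in edgeR's quasi-likelihood test. Filled points stand at Scn4b and Gjc1 in the 3 genotype panels and at Hcn2 and Hcn4 in the panel over both diets. Both panels of ertugliflozin hold open points alone.

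Set side by side on each diet, 2 of the 6 genes passed on control diet, Scn4b lower and Gjc1 higher, where 8.1% of all genes tested passed (4% higher and 4.1% lower). On ertugliflozin Scn4b again passed as lower and Gjc1 as higher, where 8.17% of all genes tested passed (3.93% higher and 4.24% lower). Groups did not overlap for 2 of 6 genes on control diet and for 3 of 6 on ertugliflozin, Hcn4 being the third. Over all genes tested, 9.29% did not overlap on control diet (4.7% higher and 4.6% lower) and 10.9% on ertugliflozin (5.4% higher and 5.49% lower). Whether the genotype effect differed between diets was tested by the interaction. No member passed it: the interaction log2 value of Scn4b was 0.54 ± 0.40 (edgeR adjusted p = 1.00) and that of Gjc1 was -0.04 ± 0.19 (edgeR adjusted p = 1.00). At an unadjusted p under 0.05 the count was 0 of 6, and DESeq2 called 0.

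Ertugliflozin gave no call among the 6 genes. In WT, the log2 fold changes of ERTU against CD ran from -0.17 ± 0.21 for Hcn4 to 0.12 ± 0.19 for Hcn2. In Gαq, the highest was Scn4b at 0.56 ± 0.29 (edgeR adjusted p = 0.656), followed by Gja5 at 0.48 ± 0.25 (edgeR adjusted p = 0.656). The lowest were Gja1 at -0.42 ± 0.26 (edgeR adjusted p = 0.669) and Hcn4 at -0.30 ± 0.22 (edgeR adjusted p = 0.709). All 6 overlapped between diets in both genotypes, where 0.756% of all genes tested did not overlap in WT (0.326% higher, 0.43% lower) and 1.6% did not in Gαq (0.744% higher, 0.854% lower). In edgeR none of 6 passed at an unadjusted p under 0.05 in WT, in Gαq or for diet over both genotypes, and DESeq2 also called 0 in each. Over all 16270 genes the same test called 0 genes (0%) for diet, 0 in WT and 1 (0.00615%) in Gαq. Unadjusted p-values under 0.05 numbered 1252, 365 and 1240 in these comparisons, and DESeq2 called 2, 0 and 4 genes.

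Levels of the 6 genes were ordered per length in each group. In both WT groups the order by mean RPKM was Gja1, Scn4b, Hcn2, Gjc1, Gja5 and Hcn4. In both Gαq groups it was Gja1, Hcn2, Gjc1, Scn4b, Gja5 and Hcn4, so Scn4b was the second of the 6 in WT and the fourth in Gαq. Scn4b had a mean of 17.7 ± 5.995 RPKM in WT CD and 2.67 ± 0.989 RPKM in Gαq CD, and Gjc1 had means of 4.88 ± 0.346 and 9.38 ± 1.98 RPKM. In both WT groups the libraries of Gja1 and Scn4b, of Scn4b and Hcn2, and of Gja5 and Hcn4 overlapped. In Gαq CD the libraries of Scn4b and Gja5, and of Gja5 and Hcn4, overlapped. In Gαq ERTU those of Scn4b and Gja5 did, and Gja5 and Hcn4 were apart.

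The balance within 2 gene pairs was compared as the log2 ratio of CPM, by exact permutation (2-sided). With 4 and 5 libraries there are 126 ways to divide them, and p cannot go below 0.0159. P-values were adjusted over the 12 tests run, and none was under 0.05 after adjustment. The lowest possible p, 0.0159, became 0.0635 on adjustment here. Groups without any overlap could therefore not pass, and the adjusted p-values cannot decide whether such groups differ. For Hcn4 to Hcn2, the ratios were -2.24, -1.26, -1.73 and -1.92 in WT CD, and -3.02, -3.05, -1.99, -3.40 and -3.02 in Gαq CD. The difference was -1.11 (exact permutation p = 0.0317, adjusted p = 0.0762). On ertugliflozin the ratios ran from -2.36 to -1.72 in WT and from -3.81 to -2.80 in Gαq, without overlap, and the difference was -1.10 (exact permutation p = 0.0159, adjusted p = 0.0635). For ertugliflozin the difference was -0.30 in WT (exact permutation p = 0.254) and -0.30 in Gαq (exact permutation p = 0.413).

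For Gja5 to Gja1, the ratios were -5.12, -5.81, -4.83, -6.17 and -4.68 in Gαq CD, and -4.18, -4.83, -4.14 and -4.24 in Gαq ERTU. The difference was 0.98 (exact permutation p = 0.0317, adjusted p = 0.0762), with a higher ratio of Gja5 to Gja1 on ertugliflozin, where Gja1 remained the far higher gene. In the other 3 comparisons of this pair the difference was 0.13 for ERTU in WT (exact permutation p = 0.794), -0.47 for genotype on control diet (exact permutation p = 0.381) and 0.38 for genotype on ertugliflozin (exact permutation p = 0.175).

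**Figure D4:**
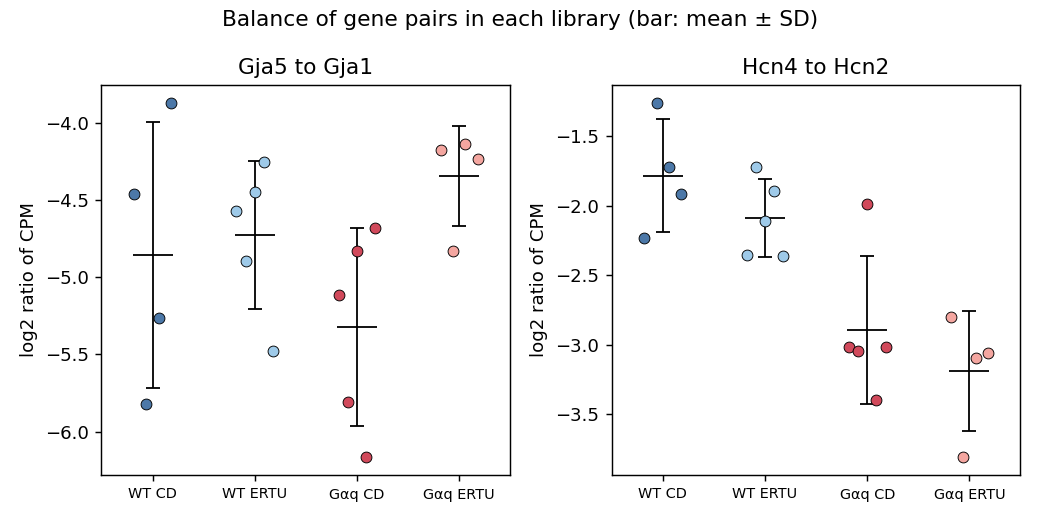
Log2 ratio of CPM in each library for 2 gene pairs in the 4 groups; points are libraries and bars give the mean ± SD. The Hcn4 to Hcn2 ratio lay between -3.81 and -2.80 in Gαq ERTU and between -2.36 and -1.72 in WT ERTU.

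Other conduction genes were counted from a list of 71, of which 51 had enough counts to be tested. With genotype 17 of 51 passed, 10 higher and 7 lower, beside 19.6% of all genes tested. Their median log2 fold change was -0.01, against 0.00 over all genes tested. On control diet 6 of 51 passed (4 higher, 2 lower; 8.1% of all genes tested) and on ertugliflozin 4 of 51 (1 higher, 3 lower; 8.17%). In edgeR none passed for diet, and DESeq2 called 0. At an unadjusted p under 0.05 the edgeR count for diet was 4 of 51, beside 1252 of all 16270 genes tested, a similar share.

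At the intercalated disc, where gap junctions and sodium channels cluster at the ends of myocytes, 5 of 11 genes passed for genotype, 2 higher and 3 lower, beside 9.72% and 9.92% of all genes tested. Dsg2, a desmosomal cadherin, fell by 0.83 on the log2 scale (SE 0.13, edgeR adjusted p = 6.85e-05). It fell on control diet by 0.89 and on ertugliflozin by 0.77. Pkp2, a desmosomal plaque protein, fell by 0.30 and Tjp1, a scaffold that binds Cx43, fell by 0.27. Cxadr, the coxsackievirus and adenovirus receptor of the disc, rose by 0.53 (SE 0.12, edgeR adjusted p = 0.00404). Ctnnb1, or beta-catenin, rose by 0.23 (SE 0.05, edgeR adjusted p = 0.00274).

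Of the 10 sodium channel partners, 4 passed for genotype, 1 higher and 3 lower, beside 9.72% and 9.92% of all genes tested. Fgf13, an intracellular modulator of the channel, fell by 0.35 on the log2 scale, Cav3, or caveolin 3, by 0.28 and Gpd1l, a modulator of channel trafficking, by 0.21. Fgf12, a related modulator, rose by 1.13 (SE 0.39, edgeR adjusted p = 0.0428) at group means of 1.56 to 5.33 CPM. On ertugliflozin Cav3 was the 1 of 10 partners that passed, beside 8.17% of all genes tested, with a fall of 0.38 (SE 0.11, edgeR adjusted p = 0.0291).

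Of the 11 transcription factors of the conduction system that could be tested, 4 rose with genotype and 0 fell, beside 9.72% and 9.92% of all genes tested. Irx5 rose by 0.88 ± 0.17 on the log2 scale (edgeR adjusted p = 0.000719), Id2 by 0.75 ± 0.19, Irx3 by 0.72 ± 0.18 and Etv1, a factor of fast-conducting Purkinje cells, by 0.48 ± 0.11. Tbx3, the repressor of working-muscle genes in nodes, had a log2 fold change of 0.08 ± 0.14 (edgeR adjusted p = 0.749). On control diet Irx5 and Etv1 passed, at 1.11 ± 0.24 and 0.58 ± 0.16, where 4% of all genes tested passed as higher. On ertugliflozin none of the 11 passed in edgeR, where 3.93% of all genes tested passed as higher.

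**Figure D5:**
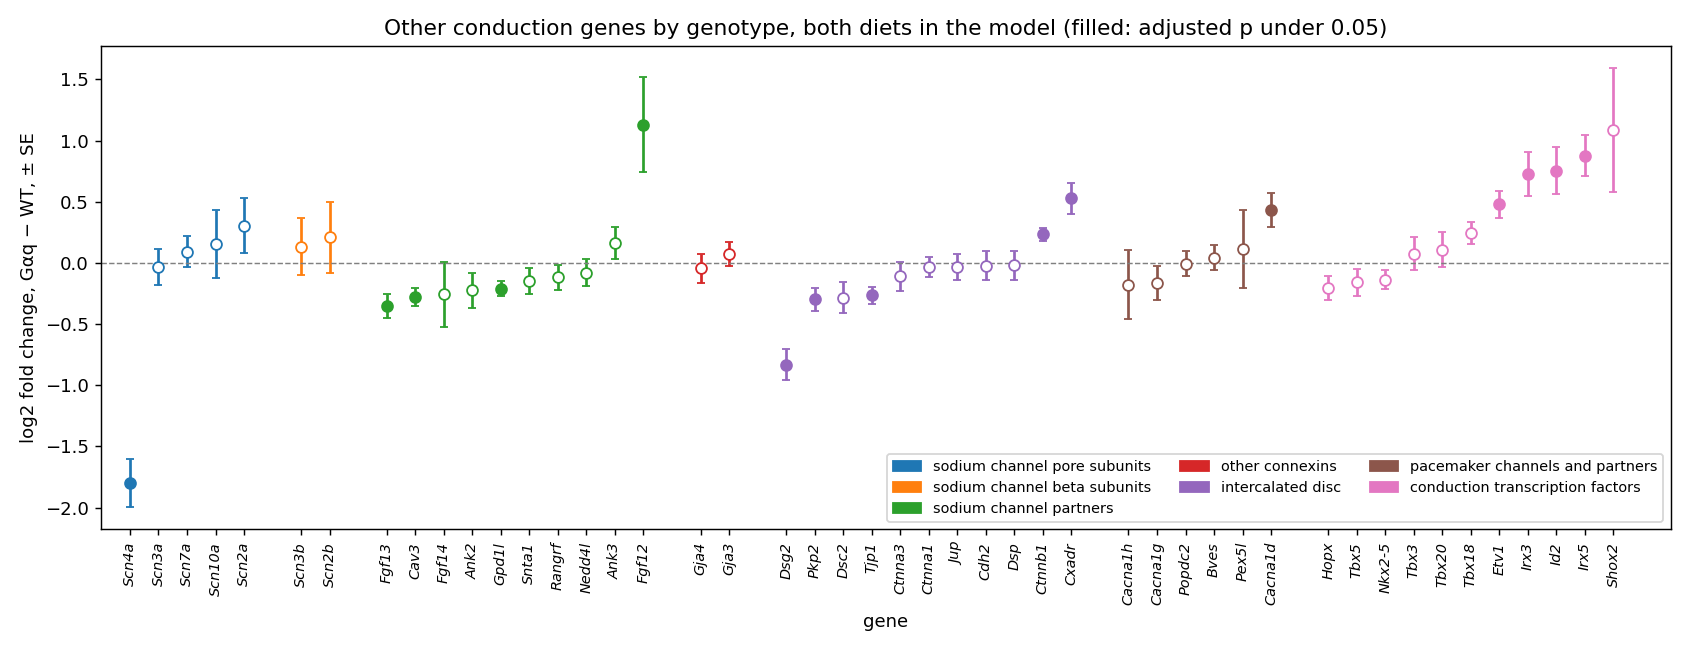
Genotype log2 fold change ± SE (Gαq against WT, both diets in the model) of 47 of the 51 other conduction genes tested, coloured by list, with filled points for an adjusted p under 0.05. Scn4a at -1.80 and Dsg2 at -0.83 were the lowest filled points, and Fgf12 at 1.13 and Irx5 at 0.88 the highest.

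Purkinje fibre markers were present at a low level. Of 6, 5 could be tested and 2 rose with genotype, beside 9.72% of all genes tested. The 2 were Irx3 and Etv1, which are also in the transcription factor list. Cntn2, an adhesion protein of Purkinje cells, had a log2 fold change of 1.04 ± 0.40 (edgeR adjusted p = 0.0710), and its levels ran from 2.16 to 27.6 CPM in WT CD and from 9.95 to 42.0 CPM in Gαq CD. The sum of the markers ran from 33.8 to 79.1 CPM in WT and from 55.2 to 116.4 CPM in Gαq libraries, and these ranges overlapped. Pcp4 was at or near 0 in every library, at most 0.395 CPM. The part of these markers in the values of the 6 genes was not tested. Of the 10 cardiomyocyte markers 4 passed for genotype, beside 19.6% of all genes tested. Ryr2 was lower by 0.82, Myh6 by 0.46 and Tnni3 by 0.27, and Mybpc3 was higher by 0.42 on the log2 scale.

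Likeness to other genes was measured within groups, as Pearson's r of log2 CPM after taking off each group mean, over 18 libraries and 13097 genes with a mean log2 CPM of at least 1. The libraries share depth and composition, so these values are descriptions. The genes most like Scn4b were Mtss1l (r = 0.88), Tmem196 (r = 0.86) and Dnmbp (r = 0.85). Those most like Gja1 were Telo2 (r = 0.95), Pcdh12 (r = 0.94) and Prrx1 (r = 0.93). Gja5 was nearest to Nek6 (r = 0.94), Vgll3 (r = 0.90) and Tnfrsf1b (r = 0.90). Gjc1 was nearest to Fam241b (r = 0.92), 1700037C18Rik (r = 0.87) and Adra1b (r = 0.86). Hcn2 was nearest to St3gal3 (r = 0.88), AI464131 (r = 0.87) and Camta2 (r = 0.86), and Hcn4 to Zfp59 (r = 0.78), Gm14269 (r = 0.77) and Mrm3 (r = 0.77). Some values rested in part on 2 libraries. Without Gαq ERTU library 17 and Gαq CD library 8, r for Hcn4 was 0.70, 0.60 and 0.69 in the same order. Without WT CD library 2 and WT ERTU library 14, r of Hcn2 with Camta2 was 0.70. With the 2 farthest libraries of each gene left out, the other pairs had r from 0.775 to 0.931. Between the 6 genes themselves, r ran from -0.33 for Scn4b with Hcn4 to 0.32 for Scn4b with Gjc1.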

How the data were processed

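Left ventricle RNA was measured as poly(A)-selected libraries with 100-bp paired-end reads. Raw counts of read pairs for each Ensembl gene were deposited, made by the authors with STAR 2.6.0c on mm10 and featureCounts of Subread 1.6.2. The second deposited table holds log2 values from the variance-stabilizing transformation of DESeq2, used here as an alternative. Groups came from the column names, whose numbers run through the series and match no replicate number of the labels. Symbols, positions and exon lengths came from GENCODE M21 on GRCm38 (55190 of 55450 IDs matched).

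Analysis used edgeR 4.0.16 in R 4.3.3: filterByExpr on the 4 groups (16270 genes kept, 0.0906% of counts left out), TMM scaling and quasi-likelihood F tests. Genotype and diet came from an additive model, and the 4 pairwise comparisons and the interaction from a model with 1 mean per group. SE is the log2 fold change divided by the square root of F. CPM and RPKM used TMM factors, and log2 CPM a prior count of 2. The test was tested on simulated data first. Alternatives used DESeq2 1.42.0, limma 3.58.1, other scaling, filters and models, and left out each of the 18 libraries. With 15383566 to 20908363 counts per library, Hcn4, the lowest of the 6 genes, rests on 65 to 219 counts per library.

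The 6 genes and the lists were chosen with earlier results of these data known. Named genes are the 6, Gnaq, other conduction genes past the threshold in the comparison described, a fixed set of close relatives (among them Scn2b, Scn3b, Hcn3, Gja4, Gjd3, Cntn2 and Tbx3), the 3 genes most like each of the 6, and marker genes. Results of 4 of these genes, and of 1 of 3 gene pairs among the 12 ratio tests, are not reported here. Ranges of marker lists not given beside a result, in CPM over all libraries, were 1054 to 1555 for endothelium (2 of 7 passed for genotype), 295.3 to 769.6 for smooth muscle (0 of 5), 272.3 to 531.8 for macrophages (0 of 6), 1.20 to 6.53 for lymphocytes (0 of 4 tested), 3.50 to 13.8 for nerve and glia (0 of 3 tested), 1.67 to 53.6 for fat (0 of 4) and 388.7 to 1451 for red blood cells (0 of 4 tested). Of the atrial markers 1 of 5 tested passed, Kcnj3, which was lower by 1.41 on the log2 scale. Of all genes tested, 19.6% passed for genotype.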

Additional observations from a re-analysis of the deposited data

Results flagged for a closer look

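In 3 of 40 groups of values tested, 1 library lay far from the others by Dixon's test (chance alone flags about 1 in 20, or 2 of 40). Hcn2 in WT CD library 2 was 22.7 CPM against 39.7 to 41.6 CPM in the other 3, with a gap of 0.897 of the range. Without that library the genotype log2 fold change of Hcn2 was 0.37 (edgeR adjusted p = 0.0304). The log2 ratio of Hcn4 to Hcn2 in Gαq CD library 8 was -1.99 against -3.40 to -3.02 in the others, a gap of 0.73 of the range, and this library held the most atrial markers, at 932.5 CPM. The log2 ratio of Gja5 to Gja1 in Gαq ERTU library 17 was -4.83 against -4.24 to -4.14, a gap of 0.856 of the range. The causes were not tested.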

How the results depend on the processing

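The 8 calls among the 6 genes (Scn4b and Gjc1 for genotype and on each diet, Hcn2 and Hcn4 for genotype) kept their direction and stayed past the threshold in all 208 fits run, which used other scaling, filters, tools, models and samples. No paired analysis was possible because no replicate number links columns of different groups, so the planned replicate block was not run. Hcn4 on ertugliflozin passed under DESeq2 (-0.69, adjusted p = 0.0275) and without WT ERTU library 14, Gαq CD library 8 or Gαq ERTU library 16 (edgeR adjusted p = 0.0394, 0.0394 and 0.0451), so its call depends on the tool and on single libraries.

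Among the other conduction genes, counts of calls moved with 1 library left out, from 3 (without WT CD library 1) to 8 on control diet, and from 2 (without WT ERTU library 12 or 13, or Gαq ERTU library 17 or 18) to 6 on ertugliflozin. Calls over all genes moved as well, from 788 of 16543 (without WT CD library 1) to 1414 of 16276 (without Gαq CD library 6) on control diet. On ertugliflozin they moved from 946 of 16530 (without Gαq ERTU library 18) to 1696 of 16226 (without WT ERTU library 14). Without the library highest in atrial markers of each group, chosen after seeing the data, 7 of the other conduction genes passed on ertugliflozin, beside 1421 of 16240 genes. DESeq2 called 8 of them on control diet, beside 1685 of 17056 genes, and 6 on ertugliflozin, beside 1754 of 17626.

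Direction changed for 13 results of single genes, none of them called, with log2 fold changes between -0.15 and 0.12. Gja1 for ERTU in WT turned to 0.0065 with median-of-ratios scaling, 0.0046 with no filter, 0.0070 with DESeq2, 0.0070 with limma on the deposited log2 values, 0.0020 with the 2 groups alone and 0.0052 with Myl7 as a covariate (added after seeing the data). Gja1 on ertugliflozin turned to -0.0061 with limma. Without the libraries highest in atrial markers, Gja1 on ertugliflozin was -0.032, Gja5 on control diet 0.070 and Gjc1 for ERTU in Gαq -0.0016. With Myl7 as a covariate, Gja5 on control diet was 0.0056, Hcn2 for ERTU in Gαq 0.026 and the Gjc1 interaction 0.0070.

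With 1 library left out, ranges that crossed 0 were as follows. For diet, Gjc1 ran from -0.0039 to 0.070 and Hcn2 from -0.040 to 0.091. For genotype, Gja5 on control diet ran from -0.22 to 0.24 and Gja1 on ertugliflozin from -0.28 to 0.16. For ERTU in WT, Scn4b ran from -0.12 to 0.26, Gja1 from -0.14 to 0.20, Gja5 from -0.093 to 0.37 and Hcn2 from -0.051 to 0.22, and the log2 ratio of Gja5 to Gja1 from -0.20 to 0.45. For ERTU in Gαq, Gjc1 ran from -0.069 to 0.084 and Hcn2 from -0.12 to 0.062. For the interaction, Gjc1 ran from -0.13 to 0.027, Hcn2 from -0.25 to 0.021 and Hcn4 from -0.26 to 0.030. The causes were not tested.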
